A study of Mus musculus with 18 samples.

Results

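The messages of the cytosolic ribosomal proteins were followed in mouse embryonic fibroblasts on 18 Affymetrix arrays. Members were all genes named Rpl or Rps with a number, together with Rpsa, Rplp0, Rplp1 and Rplp2, without pseudogenes, Rps6k kinases and like genes. The array's annotation holds 70 such symbols, of which 54 have a probe set that names the gene alone, 33 of the large and 21 of the small subunit. All 54 passed the filter on dim genes and make up 54 of 15711 genes tested. The other 16 symbols, among them Rpl3 and Rpl11, occur only in probe sets that name several genes and were described by probe set alone.

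The cells were of strain 129sv/ev and fell into 6 groups of 3 arrays, numbered 1, 2 and 4 in the titles. A line labelled NFAT5 wild-type 5.4 (WT) was grown under both conditions, isotonic and hypertonic, either with no drug or with 1 h of pretreatment with 100 nM Torin1, which blocks the kinase mTOR. A line labelled NFAT5 knock-out 5.1 (KO) had the same media but no Torin1. The numbers 300 and 500 stand in the titles for the isotonic and the hypertonic condition, without a unit, and how long the hypertonic exposure lasted is not given there. Each genotype is a single line, so that genotype and line cannot be told apart, and nothing says that the arrays of a group came from separate cultures. The p-values therefore reflect the spread among the arrays, which may be technical. Isotonic KO array 1 carries KO in its title but wild-type in its genotype label. On it Rps4l, described below, read 6.89, against 7.29 to 7.47 on the other KO arrays and at least 8.98 on WT arrays. Its mean over fibroblast markers was 11.37, against 11.02 to 11.28 on the other KO arrays and at most 10.20 on WT arrays. By these levels it reads as a KO array, and it stayed in that group. Results with it counted as WT place an array with KO levels among the WT arrays. A call lost in this way need not be a weak one. Such results are given where they end a call of a member described or move the median over the members by over 1.5 times.

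A cytosolic ribosome joins a small subunit, which decodes the message, to a large subunit, which forms the peptide bond, and each holds most ribosomal proteins in a single copy. Mammalian ribosomal protein messages are among the most abundant in growing cells and begin with a terminal oligopyrimidine (TOP) tract, a C followed by a run of C and T. Through this tract the mTOR complex mTORC1 and the binding protein LARP1 control how strongly the messages are translated. NFAT5 is the transcription factor that turns on osmolyte genes in hypertonic medium. Arrays of total RNA read the amount of message, not its translation.

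The start of the message is shown for some members named below, since it can carry the element by which mTORC1 acts. They were not drawn evenly: most of those shown have a tract at the start, unlike most members. Rps6 and Rplp2 among them were not called in any comparison. Of the members called below, Rpl12, Rpl13, Rpl22, Rpl24, Rpl26, Rpl34 and Rps19 have no tract at an annotated start and are not shown. Each window holds the 10 bases before and the 20 from the annotated start (RefSeq, GRCm38.p6), 5′ to 3′ on the strand of the gene, with the pyrimidine tract in capitals where it begins at the start. They lie at chr2:180257369-180257398 (plus strand) for Rps21, chr17:27635225-27635254 (minus) for Rps10, chr11:114668570-114668599 (plus) for Rpl38, chr4:86857348-86857377 (minus) for Rps6, chr7:141447641-141447670 (plus) for Rplp2 and chr3:86142649-86142678 (minus) for Rps3a1.
Rps21: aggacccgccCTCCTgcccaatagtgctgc
Rps10: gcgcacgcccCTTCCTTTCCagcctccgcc
Rpl38: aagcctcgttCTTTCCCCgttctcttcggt
Rps6: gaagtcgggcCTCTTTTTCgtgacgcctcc
Rplp2: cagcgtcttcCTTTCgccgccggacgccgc
Rps3a1: gccggaagggcgaaagagcaagggtcacgt
Promoter sequences were matched for 43 of the 54 members. Among them 9, or 20.9%, have a C and at least 4 more C or T exactly at the annotated start, in runs of 5 to 10 bases, against 3.01% of 27025 genes. Rps21 also has a second annotated start, with the window chr2:180257439-180257468, that has no tract, and Rps3a1 has none at its annotated start. A gene with several starts was counted if any of them matched. When a C with at least 5 more C or T was looked for anywhere in the 45 bases from 20 before the start, 62.8% of the members and 34.6% of all genes held one.

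The 150 bases before the start are shown for the members that differed between the lines in both media. They are chr3:86142669-86142818 (minus strand) for Rps3a1, chr17:27635245-27635394 (minus) for Rps10 and chr2:180257229-180257378 (plus) for Rps21. Capitals mark CCGGAAG, the core bound by ETS factors, on either strand.
Rps3a1: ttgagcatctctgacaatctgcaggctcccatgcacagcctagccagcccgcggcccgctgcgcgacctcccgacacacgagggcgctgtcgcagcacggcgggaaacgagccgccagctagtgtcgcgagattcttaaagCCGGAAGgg
Rps10: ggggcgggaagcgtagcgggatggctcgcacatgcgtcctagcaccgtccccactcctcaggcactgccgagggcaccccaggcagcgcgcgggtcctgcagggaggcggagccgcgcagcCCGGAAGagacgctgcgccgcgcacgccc
Rps21: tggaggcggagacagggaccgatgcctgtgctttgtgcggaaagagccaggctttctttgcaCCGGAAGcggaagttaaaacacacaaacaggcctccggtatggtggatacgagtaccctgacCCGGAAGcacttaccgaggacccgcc
The window before the second start of Rps21, chr2:180257299-180257448, overlaps the one shown and holds 1 match. Searched on both strands of the 300 bases around the start, CCGGAAG occurred in 39.5% of the 43 members and 9.93% of all genes. AAGATGGC, a YY1 core, occurred in 4.65% of the members and 3.19% of all genes, and TATAAA in 11.6% and 15.7%. The tonicity-responsive element consensus, the motif to which NFAT5 binds, matched in 1 of the 43 members, or 2.33%, and in 5.74% of all genes. A match is a description of these letters and not a site of binding.

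Values are log2 signals, and differences below are log2 differences ± standard error from limma, with 3 arrays in each group. Calls were made where the adjusted p was under 0.05. Array medians over all probe sets ran from 6.96 to 7.13, and arrays of a group correlated at 0.982 to 0.995. Nfat5 itself read 9.94 to 10.77 on the 12 WT arrays and 9.72 to 10.22 on the 6 KO arrays, and the KO line differed by -0.26 ± 0.16 in isotonic (limma adjusted p = 0.367) and -0.44 ± 0.16 in hypertonic medium (0.0503, or 0.00591 blocked on the array numbers). Of 15 fibroblast markers 14 passed the filter and Fap did not, while lists of epithelial, endothelial, leukocyte, neural and muscle markers averaged at most 7.01 on any array. Single markers of these lists read higher, with highest group means of 8.81 for Csf1r, 8.47 for Tek, 8.43 for Cd68 and 8.34 for Cdh1. The leukocyte list averaged 6.63 to 7.01 on hypertonic WT and 6.62 to 6.68 on hypertonic KO arrays, with overlap. The mean of the fibroblast markers ran from 10.09 to 10.20 on the WT arrays and from 11.02 to 11.37 on the KO arrays, with 4 of 14 higher in KO cells in isotonic (7.78% of all genes tested) and 5 in hypertonic medium (13.8%) and 0 lower. The endothelial list averaged 5.76 to 6.11 on WT and 6.11 to 6.83 on KO arrays, with 1 of 3 tested markers higher in each medium. The epithelial list averaged 6.51 to 6.57 on isotonic WT against 6.68 to 6.95 on isotonic KO arrays and 6.45 to 6.67 against 6.75 to 6.88 on hypertonic ones, with 1 of 6 markers higher in each medium. The muscle list averaged 5.95 to 6.17 on isotonic WT and 6.21 to 6.44 on isotonic KO arrays and overlapped in hypertonic medium. The part of these differences between the lines in the results below was not tested. In bulk RNA, fewer cells of a type and less RNA per cell cannot be told apart.

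The question of the first comparison is whether ribosomal protein messages differ between the KO and the WT line. In KO cells nearly all of them read somewhat higher, in both media, by a small amount. In isotonic medium 51 of 54 members had a higher mean in KO cells, with a median difference of 0.24, and in hypertonic medium 52 of 54, with a median of 0.24, while the medians of all genes tested were 0.02 and 0.04. No member was lower in both media, and 49 were higher in both. The hypertonic median was 0.14, with 47 members higher, without hypertonic WT array 4. Rps3a1, a protein of the small subunit, differed most.

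Few of these differences passed one by one. In isotonic medium 4 of 54 members were called higher and 0 lower, or 7.41%, against 7.78% of all genes called higher (6.84% lower), so this share is near the background. In hypertonic medium 15 were called higher and 0 lower, or 27.8%, against 13.8% of all genes (18% lower). Blocked on the array numbers, 10 were called in isotonic medium, where the share of all genes was 10.7%, and 18 in hypertonic medium, where it was 17.2%. All 3 KO arrays lay above all 3 WT arrays for 36 members in isotonic medium (17.2% of all genes) and for 32 in hypertonic medium (21.8% of all genes). The isotonic count of 4 rested on single arrays. It was 1 without array 1 or 4 of isotonic WT or any of isotonic KO arrays 1, 2 and 4. Of all genes 1723 to 2064 were then called, against 2298 with every array. It was 8 without isotonic Torin1 array 4 (2380 of all genes) and 13 without hypertonic WT array 4 (2428). With isotonic KO array 1 counted as WT it was 0 (0 of all genes). The hypertonic count of 15 dropped to 3 when hypertonic WT array 4 was left out, to 6 for hypertonic KO array 1 and to 5 for hypertonic KO array 4. Of all genes 4463, 3939 and 4890 were then called, against 5007 with every array.

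**Figure D1:**
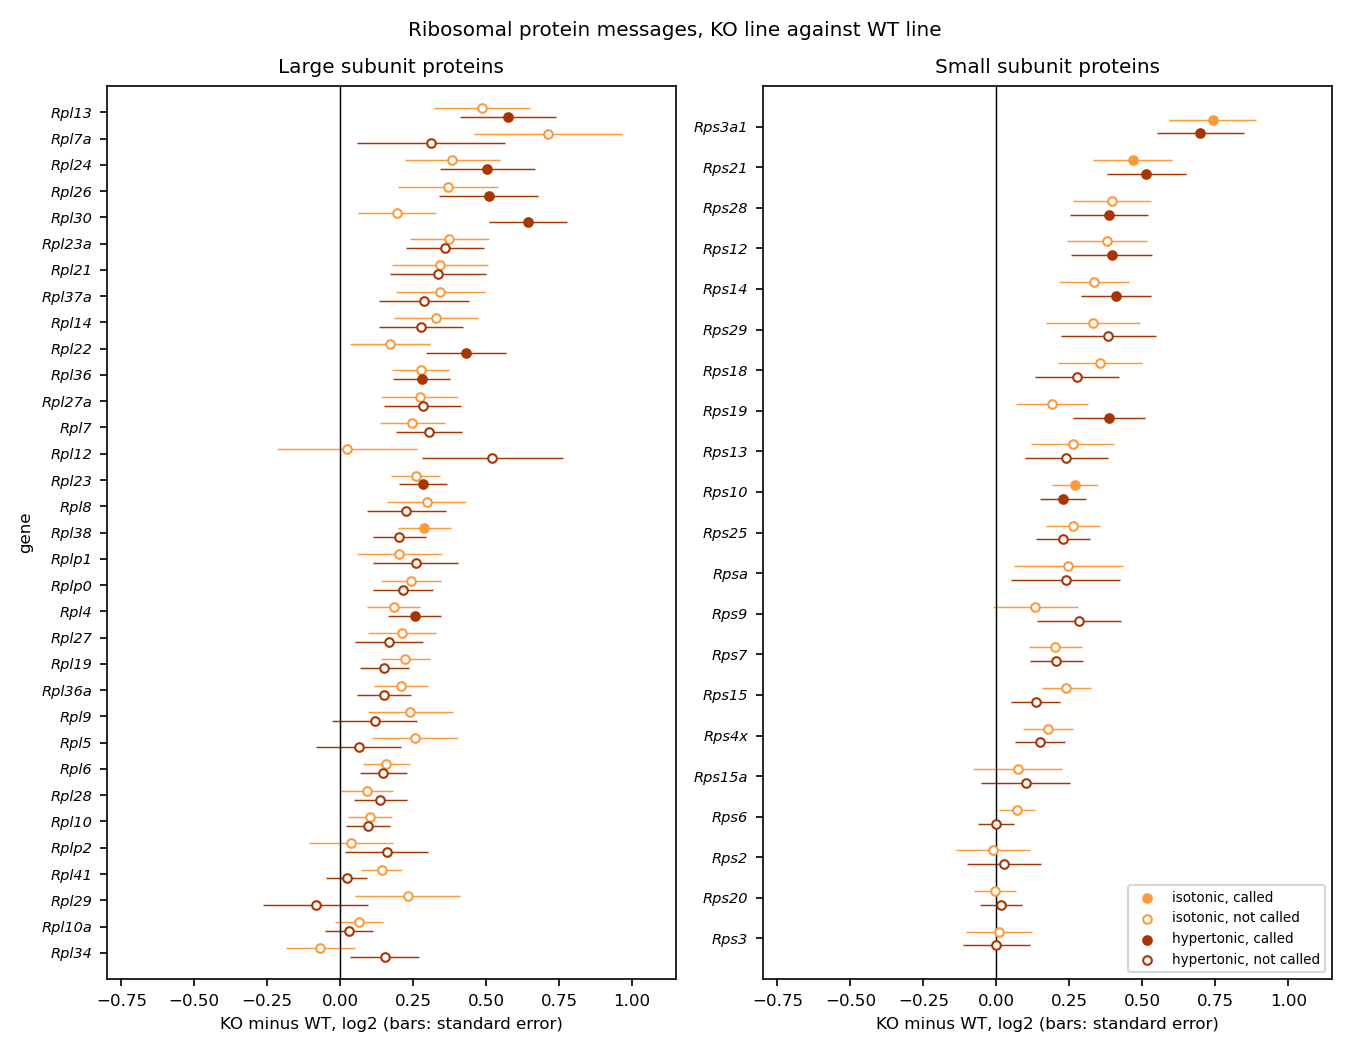
Log2 difference of the KO line from the WT line for each of the 54 ribosomal protein genes, with its standard error, in isotonic (light) and hypertonic medium (dark), ordered by the mean of both. Filled points are called at a limma adjusted p below 0.05, 4 in isotonic and 15 in hypertonic medium, and nearly all points lie to the right of 0.

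Rps3a1 read 10.58, 10.98 and 10.86 on the isotonic and 11.07, 11.11 and 10.74 on the hypertonic WT arrays, and with Torin1 10.80, 11.03 and 10.56 on the isotonic and 11.00, 10.88 and 10.74 on the hypertonic arrays. In KO cells it read 11.47, 11.55 and 11.63 on the isotonic and 11.66, 11.44 and 11.91 on the hypertonic KO arrays. Every KO array lay above every WT array, with or without Torin1. The differences were 0.74 ± 0.15 in isotonic (limma adjusted p = 0.00265) and 0.70 ± 0.15 in hypertonic medium (0.00212). The isotonic call was lost with isotonic KO array 1 counted as WT (0.178) and was kept whichever single array was left out. The other 2 probe sets that name Rps3a1, each with further genes, were also higher in KO cells, with medians of the 2 sets of 0.26 in isotonic and 0.21 in hypertonic medium, so the size depends on the probe set.

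Rps21, a small protein of the 40S subunit needed for late processing of its RNA, read 9.79, 10.09 and 9.76 on the isotonic and 10.14, 10.11 and 9.73 on the hypertonic WT arrays, and with Torin1 9.79, 9.87 and 9.39 on the isotonic and 10.08, 9.93 and 9.96 on the hypertonic arrays. KO arrays read 10.47, 10.27 and 10.30 on the isotonic and 10.52, 10.46 and 10.54 on the hypertonic KO arrays. The KO arrays were the higher ones in both media, without overlap. It differed by 0.47 ± 0.14 in isotonic (limma adjusted p = 0.0297) and 0.51 ± 0.14 in hypertonic medium (0.00888), and its second probe set by 0.46 and 0.69. The isotonic call needed every array of its contrast but isotonic WT array 2: it was lost without array 1 (0.103) or 4 (0.103) of isotonic WT and without array 1 (0.119), 2 (0.0532) or 4 (0.0531) of isotonic KO, and was at 0.581 with isotonic KO array 1 counted as WT. In hypertonic medium no single array decided it.

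Rps10, at the entry of the message channel, read 11.86, 11.90 and 11.81 on the isotonic and 12.06, 12.01 and 11.83 on the hypertonic WT arrays, and with Torin1 11.89, 11.91 and 11.74 on the isotonic and 11.93, 11.92 and 11.92 on the hypertonic arrays. On KO arrays its levels were 12.14, 12.12 and 12.13 on the isotonic and 12.14, 12.20 and 12.25 on the hypertonic KO arrays. The groups did not overlap in either medium, over a narrow range. It was higher by 0.27 ± 0.08 (limma adjusted p = 0.029) and 0.23 ± 0.08 (0.0353). The isotonic call was lost without isotonic WT arrays 1 (0.0676), 2 (0.0536) or 4 (0.0905) or isotonic KO arrays 1 (0.0835), 2 (0.071) or 4 (0.069), and the hypertonic one without hypertonic WT arrays 2 (0.0557) or 4 (0.154) or hypertonic KO arrays 2 (0.0853) or 4 (0.0964). With isotonic KO array 1 counted as WT both were lost (0.403 and 0.0819).

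Rpl38, a large subunit protein known for its part in the translation of Hox messages, was called in isotonic medium. It read 12.66, 12.73 and 12.56 in isotonic WT and 12.88, 12.91 and 13.03 in isotonic KO cells, 12.85, 12.87 and 12.55 in hypertonic WT and 12.95, 12.96 and 12.96 in hypertonic KO cells, and 12.61 to 12.77 on the 6 arrays with Torin1. KO arrays again lay above the WT arrays of the same medium. The differences were 0.29 ± 0.09 (limma adjusted p = 0.044) and 0.20 ± 0.09 (0.101). The isotonic call did not survive the loss of most single arrays: it was lost without isotonic WT arrays 1 (0.0907), 2 (0.0557) or 4 (0.149), isotonic Torin1 arrays 1 (0.0565) or 2 (0.0553), hypertonic Torin1 arrays 1 (0.0521) or 2 (0.0522), isotonic KO arrays 1 (0.065), 2 (0.0867) or 4 (0.154), or hypertonic KO arrays 1 (0.0562) or 2 (0.0578). With isotonic KO array 1 counted as WT it was at 0.257.

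In hypertonic medium the next largest differences were those of Rpl30 and Rpl13, both of the large subunit. Rpl30 read 8.51, 9.05 and 8.82 on the isotonic and 9.16, 8.95 and 8.76 on the hypertonic WT arrays, and with Torin1 8.78, 8.78 and 8.69 on the isotonic and 8.81, 8.72 and 8.71 on the hypertonic arrays. KO cells gave 9.17, 8.96 and 8.82 on the isotonic and 9.46, 9.66 and 9.69 on the hypertonic KO arrays. Only the 3 hypertonic KO arrays stood above the rest. The difference between the lines was 0.19 ± 0.13 in isotonic (limma adjusted p = 0.413) and 0.64 ± 0.13 in hypertonic medium (0.00174). The hypertonic call held in each of the 30 alternatives, but none of them changed the probe set, since only 1 names Rpl30 alone. The 8 other probe sets, which name further genes, were all higher in KO cells in each medium. Their median was 0.28 in isotonic and 0.32 in hypertonic medium, so the size depends on the probe set.

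Rpl13 read 10.69, 10.98 and 10.62 on the isotonic and 11.00, 10.88 and 10.36 on the hypertonic WT arrays, and with Torin1 10.61, 10.89 and 10.27 on the isotonic and 11.04, 10.96 and 10.80 on the hypertonic arrays. The KO levels were 11.32, 11.24 and 11.19 on the isotonic and 11.39, 11.25 and 11.32 on the hypertonic KO arrays, above the WT arrays of the same medium. It differed by 0.58 ± 0.16 in hypertonic medium (limma adjusted p = 0.014), a call lost without hypertonic WT array 4 (0.074) or hypertonic KO array 1 (0.0505). In isotonic medium the 0.49 ± 0.16 did not pass (limma adjusted p = 0.0604), but did once blocked on the array numbers (0.0133), and without isotonic WT array 2 (0.0454), isotonic Torin1 array 2 (0.0448), isotonic Torin1 array 4 (0.0366) or hypertonic WT array 4 (0.0234). The other members called in hypertonic medium were Rpl26, Rpl24, Rps14, Rps12, Rps19, Rps28, Rpl23, Rpl36, Rpl4 and Rpl22, with differences from 0.26 to 0.51.

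The stalk proteins Rplp0, Rplp1 and Rplp2, which draw elongation factors to the large subunit, were not called. Rplp0 read 12.86, 12.95 and 12.67 on the isotonic and 13.03, 13.02 and 12.73 on the hypertonic WT arrays, and with Torin1 12.74, 12.97 and 12.70 on the isotonic and 12.93, 12.99 and 12.87 on the hypertonic arrays, and 13.10, 13.04 and 13.07 on the isotonic and 13.15, 13.07 and 13.21 on the hypertonic KO arrays. Rplp1 read 13.69, 13.77 and 13.39 on the isotonic and 13.84, 13.78 and 13.38 on the hypertonic WT arrays, and with Torin1 13.72, 13.76 and 13.28 on the isotonic and 13.87, 13.79 and 13.63 on the hypertonic arrays, and 13.93, 13.79 and 13.74 on the isotonic and 13.98, 13.88 and 13.92 on the hypertonic KO arrays. Rplp2 read 7.28, 7.48 and 7.04 on the isotonic and 7.49, 7.56 and 7.24 on the hypertonic WT arrays, and with Torin1 7.39, 7.39 and 6.97 on the isotonic and 7.12, 7.51 and 7.28 on the hypertonic arrays, and 7.34, 7.14 and 7.43 on the isotonic and 7.58, 7.57 and 7.62 on the hypertonic KO arrays. For Rplp0 every KO array lay above the WT arrays of its medium, for Rplp1 and Rplp2 only in hypertonic medium. KO minus WT was 0.24 ± 0.10 and 0.21 ± 0.10 for Rplp0 (limma adjusted p = 0.146 and 0.128 in isotonic and hypertonic medium). For Rplp1 the values were 0.20 ± 0.14 and 0.26 ± 0.14 (0.429 and 0.191), and for Rplp2 0.04 ± 0.14 and 0.16 ± 0.14 (0.915 and 0.428). The only probe set of Rplp2 read near the array medians over all probe sets, 6.96 to 7.13, far below Rplp0 and Rplp1. How well it follows the Rplp2 message was not tested.

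Rps6, the 40S protein phosphorylated by the S6 kinases downstream of mTORC1, was the steadiest member by the probe sets used. Its levels were 13.56, 13.60 and 13.57 on the isotonic and 13.65, 13.68 and 13.65 on the hypertonic WT arrays, and with Torin1 13.58, 13.60 and 13.58 on the isotonic and 13.58, 13.62 and 13.59 on the hypertonic arrays. KO cells read 13.63, 13.64 and 13.68 on the isotonic and 13.64, 13.64 and 13.70 on the hypertonic KO arrays. The pooled SD within groups was 0.024, the lowest of the 54. KO minus WT was 0.07 ± 0.06 in isotonic (95% interval -0.06 to 0.20) and 0.00 ± 0.06 in hypertonic medium (-0.13 to 0.13), and neither passed (limma adjusted p = 0.537 and 0.999). Of the 6 other probe sets of Rps6, 5 were higher in KO cells in each medium, with medians over the 6 of 0.12 and 0.08. Their hypertonic effect in KO cells ran from -0.27 to 0.47, against 0.01 for the set used, so the steadiness is that of 1 probe set. Rps2, Rps3 and Rps20, 40S proteins that lie near the message channel and the head, had differences from -0.01 to 0.03 in the 2 media. Their 95% intervals reached from -0.28 to 0.30 for Rps2, from -0.24 to 0.25 for Rps3 and from -0.16 to 0.17 for Rps20.

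Rpsa, the laminin receptor homologue of the small subunit, read 12.77, 12.84 and 12.34 on the isotonic and 12.98, 12.87 and 12.35 on the hypertonic WT arrays, and with Torin1 12.66, 12.74 and 12.17 on the isotonic and 12.58, 12.90 and 12.54 on the hypertonic arrays. It read 12.88, 12.90 and 12.92 on the isotonic and 13.09, 13.05 and 12.77 on the hypertonic KO arrays. Arrays of number 4 were the lowest of each WT group. The difference of 0.25 ± 0.19 in isotonic and 0.24 ± 0.19 in hypertonic medium did not pass (limma adjusted p = 0.459 and 0.354).

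Rpl10, which joins the large subunit last, read 13.76, 13.80 and 13.64 on the isotonic and 13.77, 13.82 and 13.66 on the hypertonic WT arrays, and with Torin1 13.78, 13.82 and 13.67 on the isotonic and 13.86, 13.77 and 13.70 on the hypertonic arrays. KO arrays read 13.83, 13.84 and 13.83 on the isotonic and 13.84, 13.81 and 13.87 on the hypertonic KO arrays. The KO arrays lay between 13.81 and 13.87, above the WT arrays without overlap in isotonic medium. KO minus WT was 0.10 ± 0.08 and 0.10 ± 0.08 (limma adjusted p = 0.462 and 0.37).

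Rpl5, which with Rpl11 and the 5S RNA binds Mdm2, read 12.19, 12.57 and 12.56 on the isotonic and 12.55, 12.74 and 12.77 on the hypertonic WT arrays, and with Torin1 12.47, 12.85 and 12.44 on the isotonic and 12.47, 12.11 and 12.27 on the hypertonic arrays, and 12.60, 12.62 and 12.86 on the isotonic and 12.76, 12.55 and 12.94 on the hypertonic KO arrays. It was highest in hypertonic KO array 4 and lowest in hypertonic Torin1 array 2. KO minus WT was 0.26 ± 0.15 and 0.06 ± 0.15 (limma adjusted p = 0.304 and 0.775). Rpl22, a large subunit protein not needed for translation as such, read 10.72, 10.57 and 10.43 on the isotonic and 10.45, 10.28 and 10.02 on the hypertonic WT arrays, and with Torin1 10.62, 10.65 and 10.64 on the isotonic and 10.72, 10.43 and 10.58 on the hypertonic arrays, and 10.76, 10.80 and 10.67 on the isotonic and 10.67, 10.41 and 10.97 on the hypertonic KO arrays. Its hypertonic groups overlapped. The hypertonic difference of 0.43 ± 0.14 was called (limma adjusted p = 0.0247), and the call was lost without hypertonic WT array 2 (0.0535), hypertonic WT array 4 (0.114), hypertonic KO array 1 (0.0566) or hypertonic KO array 4 (0.118). In isotonic medium it was 0.17 ± 0.14 (0.498).

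**Figure D2:**
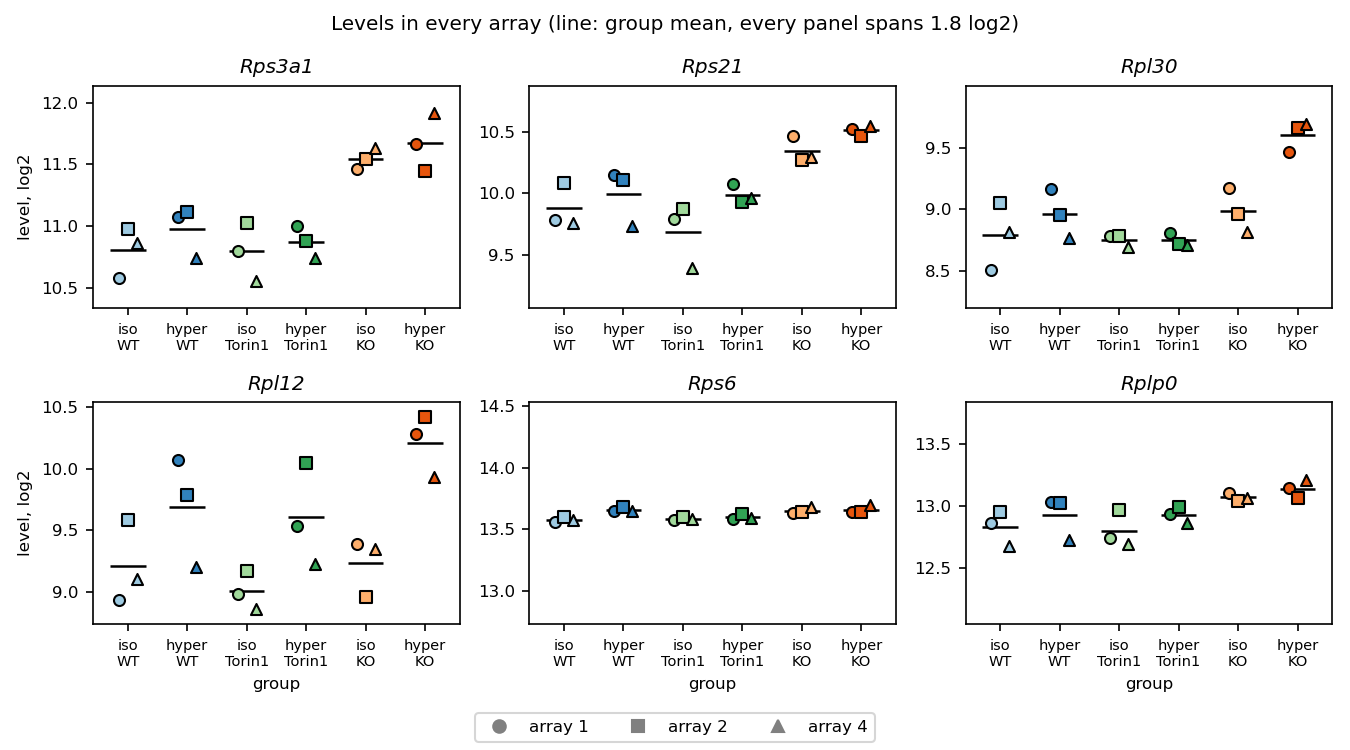
Log2 level of 6 ribosomal protein genes on every array, by group, with the array number as the marker and the group mean as a line; every panel spans the same height. Rps3a1 and Rps21 lie higher on all KO arrays, Rpl30 is highest on the 3 hypertonic KO arrays, Rpl12 has its highest mean there, and Rps6 stays between 13.56 and 13.70.

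The size of the difference between the lines varied with the array numbers. Within number 1 the median over the 54 members was 0.22 in isotonic and 0.10 in hypertonic medium, within number 2 it was 0.09 and 0.10, and within number 4 it was 0.39 and 0.45. Members higher in KO cells numbered 50, 44 and 53 in isotonic medium for numbers 1, 2 and 4, and 45, 42 and 54 in hypertonic medium. In all 3 numbers 42 members were higher in isotonic and 39 in hypertonic medium, and 0 were lower in all 3. The direction of the median was thus the same within each number, while its size in number 4 was over 1.5 times that in the others.

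The same can be read array by array. The median deviation of the 54 members from the isotonic WT mean was 0.02, 0.13 and -0.13 on isotonic WT arrays 1, 2 and 4, and 0.17, 0.17 and -0.08 on the hypertonic WT arrays. The arrays with Torin1 had 0.01, 0.12 and -0.14 under isotonic and 0.16, 0.07 and 0.02 under hypertonic conditions. The isotonic KO arrays had 0.23, 0.21 and 0.23, and the hypertonic ones 0.27, 0.26 and 0.38. All 6 KO arrays lay above all 12 arrays of the WT line, isotonic KO array 1 among them, and array 4 was the lowest of each WT group. Over all genes tested the same medians stayed between -0.03 and 0.10.

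**Figure D3:**
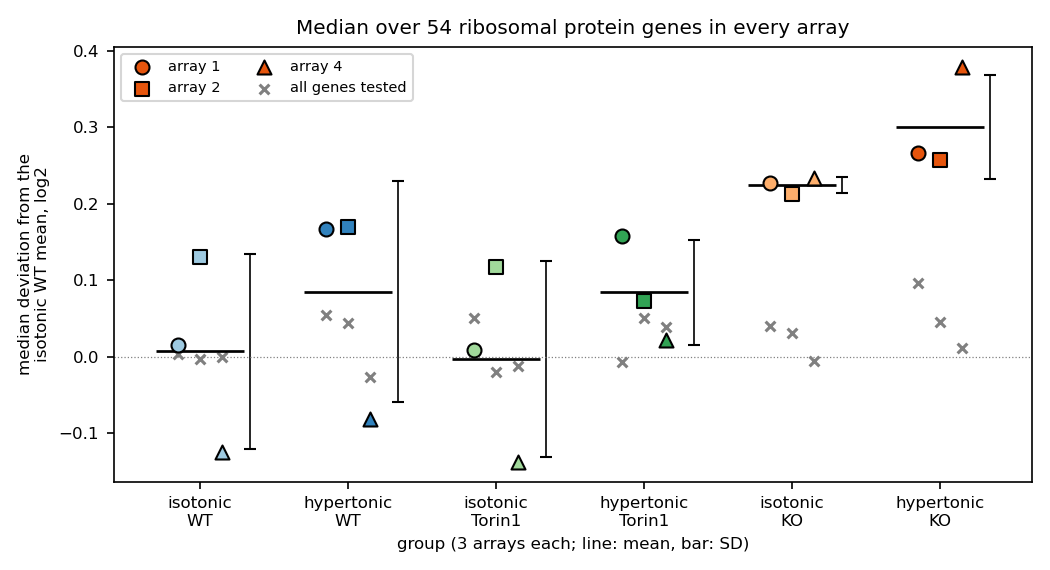
Median log2 deviation of the 54 ribosomal protein genes from the isotonic WT mean on each array, with group mean and SD (n = 3), and the same median over all genes tested as crosses. The 6 KO arrays lie between 0.21 and 0.38, above the WT arrays at -0.14 to 0.17.

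The medians of the subunits were close. In isotonic medium the median KO minus WT difference was 0.24 for the 33 large and 0.25 for the 21 small subunit members, and in hypertonic medium 0.26 and 0.24. Of the members called in hypertonic medium 8 belong to the large and 7 to the small subunit. By mean level, the 14 members above 13 had medians of 0.15 and 0.13 in the 2 media, the 18 between 12 and 13 had 0.25 and 0.23, the 14 between 10 and 12 had 0.34 and 0.39, and the 8 below 10 had 0.13 and 0.22. The brightest probe sets thus differed less than those of the middle range; the highest value of any probe set was 14.53, and the part of a limited range was not tested. The 9 members with a tract at the annotated start had medians of 0.27 and 0.20, and the 34 with a promoter sequence but no tract there had 0.23 and 0.23. No tract here means none at the exact annotated base. Of the 43 members with a sequence, 62.8% held a pyrimidine run near that base.

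Members also moved together within groups. After the group means were taken out, pairs of members correlated with a mean r of 0.52 over the 18 arrays (median 0.57), and 94.2% of pairs were positive, against a mean r of 0.029 over all genes tested. The points share the arrays, and members can share probe sequences through pseudogenes. The counts above are therefore not counts of independent genes. The widest spread within groups was that of Rpl7a, a large subunit protein, with a pooled SD of 0.34 around levels from 6.70 to 7.99. Its isotonic difference of 0.71 ± 0.25 was not called (limma adjusted p = 0.0765), but was once blocked on the array numbers (0.0145). In hypertonic medium Rpl7a differed by 0.31. Its 17 other probe sets had medians of 0.30 in isotonic and 0.22 in hypertonic medium, so the size depends on the probe set. The set used read not far from the array medians over all probe sets, 6.96 to 7.13.

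Other probe sets that name the members read the same direction. In all 390 probe sets name a member, 185 of them alone. Of 47 members with further probe sets, the median of those sets was higher in KO cells for 44 in isotonic and 45 in hypertonic medium. Of the 205 probe sets that name several genes, 179 were higher in isotonic and 184 in hypertonic medium, with medians of 0.23 and 0.22. These sets can take signal from the other genes they name: one naming Rpl11 read 4.16 higher in KO cells in isotonic and 3.88 in hypertonic medium, far outside the range of the sets that name a member alone, which ended at 0.87 in both media.

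The next comparison asks what hypertonic medium does to ribosomal protein messages. In WT cells no member was called by limma, higher or lower, against 3.94% of all genes called higher and 4.30% lower, and 1 had an unadjusted p below 0.05. By sign 46 of 54 were higher in hypertonic medium, with a median of 0.08 against 0.02 for all genes, and for 1 member, Rps6, all hypertonic arrays lay above all isotonic ones (13.5% of all genes). Rps6 differed there by 0.08 ± 0.06 (limma adjusted p = 0.507). With Torin1 0 were called by limma (1.65% of all genes higher, 1.72% lower), with 4 at an unadjusted p below 0.05, 46 higher by sign, a median of 0.08 and 6 members without overlap (11.2% of all genes). The median in WT cells was 0.01, with 30 members higher and 24 lower, with isotonic KO array 1 counted as WT, when that of all genes was 0.02. Dropping an isotonic WT array gave 0.02 (31 higher) for array 4 and 0.13 (51) for array 2. Dropping a hypertonic one gave 0.04 (35) for array 1, 0.02 (35) for array 2 and 0.18 (52) for array 4. With Torin1 it was 0.01 (34 higher) without isotonic Torin1 array 4 and 0.15 (49) without isotonic Torin1 array 2. The count called was 1 in WT cells without hypertonic WT array 4, and 1 with Torin1 when blocked on the array numbers (4.08% of all genes) or without isotonic Torin1 array 2. Within numbers 1, 2 and 4 the median in WT cells was 0.15, 0.06 and 0.02.

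In KO cells hypertonic medium raised 4 members and lowered 0, or 7.41%, against 12.9% of all genes called higher (17.2% lower). The median was 0.05 against 0.02 for all genes, 43 members were higher by sign, and for 11 the arrays did not overlap (22.3% of all genes). The median was 0.02, with 31 members higher, without hypertonic KO array 4, where that of all genes was 0.04, and 0.08 (46) without hypertonic KO array 2. The 4 called were Rpl12, Rpl30, Rpl34 and Rps19. Rpl12, which sits at the base of the stalk, read 8.93, 9.59 and 9.10 on the isotonic and 10.07, 9.78 and 9.20 on the hypertonic WT arrays, and with Torin1 8.98, 9.17 and 8.86 on the isotonic and 9.54, 10.05 and 9.23 on the hypertonic arrays. KO cells read 9.39, 8.96 and 9.35 on the isotonic and 10.28, 10.42 and 9.93 on the hypertonic KO arrays. The hypertonic KO arrays were above the isotonic ones, and WT cells with Torin1 showed no overlap either.

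Rpl12 rose by 0.98 ± 0.24 in KO cells (limma adjusted p = 0.0058), and the change was 0.48 ± 0.24 in WT cells (0.256) and 0.60 ± 0.24 with Torin1 (0.211). The 3 changes were not shown to differ, with a KO minus WT difference of 0.50 ± 0.34 (limma adjusted p = 0.456) and one of 0.12 ± 0.34 for Torin1 (1). Rpl12 is also named by 7 probe sets that name further genes, and in KO cells these changed by a median of 0.17, from -0.00 to 1.03. The value thus depends on the probe set.

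Rpl30, whose levels are given above, rose by 0.62 ± 0.13 in KO cells (limma adjusted p = 0.0024), against 0.17 ± 0.13 in WT cells (0.524) and -0.01 ± 0.13 with Torin1 (0.991). The difference between the lines, 0.45 ± 0.19, did not pass (limma adjusted p = 0.168). The 8 other probe sets that name Rpl30 with further genes changed by 0.13 to 0.53 in KO cells, all upward.

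Rpl34, of the large subunit, read 7.67, 7.92 and 7.46 on the isotonic and 7.93, 7.88 and 7.98 on the hypertonic WT arrays, and with Torin1 7.66, 7.85 and 7.67 on the isotonic and 7.81, 7.69 and 7.65 on the hypertonic arrays. It read 7.51, 7.72 and 7.60 on the isotonic and 7.88, 8.10 and 8.26 on the hypertonic KO arrays. Hypertonic KO arrays lay above isotonic ones. It rose by 0.47 ± 0.12 in KO cells (limma adjusted p = 0.00658), against 0.25 ± 0.12 in WT cells (0.226) and -0.01 ± 0.12 with Torin1 (0.984), and the difference between the lines was 0.22 ± 0.17 (0.516). Its 4 other probe sets, which name further genes, changed by 0.01 to 0.06 in KO cells.

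Rps19, the 40S protein whose gene is most often mutated in Diamond-Blackfan anaemia, read 11.32, 11.45 and 11.39 on the isotonic and 11.59, 11.61 and 11.41 on the hypertonic WT arrays, and with Torin1 11.03, 11.51 and 11.22 on the isotonic and 11.54, 11.70 and 11.87 on the hypertonic arrays. On KO arrays it read 11.71, 11.51 and 11.50 on the isotonic and 11.96, 11.77 and 12.03 on the hypertonic KO arrays. Hypertonic arrays lay above isotonic ones in KO cells and in WT cells with Torin1. It rose by 0.34 ± 0.12 in KO cells (limma adjusted p = 0.0461), and the change was 0.15 ± 0.12 in WT cells (0.546) and 0.45 ± 0.12 with Torin1 (0.0577, or 0.0421 blocked on the array numbers). The call in KO cells was lost without isotonic WT arrays 1 (0.0524), 2 (0.056) or 4 (0.055), isotonic Torin1 array 4 (0.0527), hypertonic WT arrays 1 (0.0546) or 2 (0.0558), hypertonic Torin1 array 2 (0.0566), isotonic KO arrays 2 (0.127) or 4 (0.13), or hypertonic KO arrays 1 (0.119) or 4 (0.142), and with isotonic KO array 1 counted as WT (0.0622). With Torin1 it passed without isotonic Torin1 array 2 (0.0292). The other 2 probe sets naming Rps19 rose by 0.39 and 0.40 in KO cells. Between the lines in hypertonic medium it differed by 0.39 ± 0.12 (0.0255), a call lost without hypertonic WT array 4 (0.0941), hypertonic KO array 1 (0.0757) or hypertonic KO array 4 (0.0836).

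Whether hypertonic medium acted differently in the 2 lines was asked by subtracting the change in WT from that in KO cells. No member was called by limma (3.35% of all genes higher, 6.15% lower), with 1 at an unadjusted p below 0.05, 25 positive and 29 negative differences and a median of -0.01. Leaving out 1 array moved this median between -0.09 (9 positive, without hypertonic WT array 4) and 0.07 (41 positive, without isotonic WT array 4), and it was 0.07 (41 positive) with isotonic KO array 1 counted as WT, so its sign depends on the arrays used. The intervals are wide, as for Rpl30, where the 95% interval of this difference was 0.05 to 0.85, and Rps3a1, where it was -0.49 to 0.41. For Torin1 the same test called 0 members by limma, with 1 at an unadjusted p below 0.05 (0 of all genes called), with 34 positive and 20 negative differences and a median of 0.04. This median ran from -0.07 (13 positive) without hypertonic WT array 4 to 0.11 (40 positive) without isotonic WT array 4, so its sign depends on them too.

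The comparisons with Torin1 ask whether ribosomal protein messages differ with the drug. No member was called by limma in isotonic (0 of all genes called) or hypertonic medium (0.0573% of all genes called higher and 0.0573% lower), with 0 and 2 members at an unadjusted p below 0.05. In hypertonic medium all Torin1 arrays lay above the others for 2 members (7.68% of all genes) and below for 3 (7.95%). In isotonic medium 28 members were higher and 26 lower with Torin1, at a median of 0.00, and in hypertonic medium 32 and 22, at 0.01. These counts turned with single arrays. In isotonic medium the median ran from -0.05 (8 higher without isotonic WT array 4, 14 without isotonic Torin1 array 2) to 0.07 (43 higher, without isotonic Torin1 array 4), and it was -0.05 (10 higher) with isotonic KO array 1 counted as WT. In hypertonic medium it ran from -0.07 (11 higher, without hypertonic WT array 4) to 0.06 (40 and 39 higher, without arrays 1 and 2 of that group). The 2 largest values of the members in hypertonic medium were -0.40 ± 0.15 for Rpl5 (limma adjusted p = 0.26) and 0.33 ± 0.14 for Rpl22 (0.34), and neither passed. For the probe set used for Rps6 the 95% interval of the Torin1 difference was -0.13 to 0.14 in isotonic and -0.19 to 0.07 in hypertonic medium. These are levels of total message, and the labels state no measure of translation. Whether mTOR was blocked in these cells was not tested.

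Other genes of the pathway were read beside the members. Their counts are to be read against the shares of all genes called, which were 7.78% higher and 6.84% lower for KO against WT in isotonic and 13.8% and 18% in hypertonic medium. For the hypertonic effect these shares were 12.9% and 17.2% in KO and 3.94% and 4.30% in WT cells. For Fau, which encodes a small subunit protein under a name of another kind, the KO minus WT difference was 0.23 ± 0.09 in isotonic (limma adjusted p = 0.0972) and 0.19 ± 0.09 in hypertonic medium (0.114). Other genes known for TOP tracts, which encode elongation factors, eIF3 subunits and the like, had 0 of 20 called by limma in isotonic medium. There 2 had an unadjusted limma p below 0.05. In KO cells 2 were higher in hypertonic medium, and 7 after centring the arrays, where 7032 of 15963 genes were called in either direction. The medians were 0.07 and 0.10. Of 17 genes of this list with a promoter sequence, 3 have a tract at the annotated start by the rule above. Eif3e, an eIF3 subunit, was higher by 0.36 ± 0.09 in hypertonic KO cells (limma adjusted p = 0.00695). Of 20 translation factors without a known TOP tract 0 were higher and 1 lower in isotonic medium. In hypertonic medium 2 were higher and 5 lower. Their medians were -0.13 in isotonic and -0.04 in hypertonic medium. With the arrays centred their hypertonic median was 0.11, when that of all genes was 0.19. Eif2b3, a subunit of the exchange factor of eIF2, had a difference of -1.38 ± 0.22 in hypertonic KO cells (limma adjusted p = 0.000223), and Eif1a, which helps find the start codon, one of -0.58 ± 0.09 in isotonic and -0.55 ± 0.09 in hypertonic medium (0.000196 in each). The isotonic call of Eif1a was lost with isotonic KO array 1 counted as WT (0.183).

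Larp1, which binds TOP tracts, read 11.03, 11.17 and 11.11 in isotonic and 11.39, 11.29 and 11.10 in hypertonic WT cells, 10.91, 11.05 and 11.00 and 10.94, 11.03 and 10.99 with Torin1, and 10.93, 10.90 and 10.95 on the isotonic and 11.54, 11.45 and 11.55 on the hypertonic KO arrays. The hypertonic KO arrays were the highest of all 18. It rose by 0.59 ± 0.08 in KO cells in hypertonic medium (limma adjusted p = 7.37e-05), a call kept in each of the 30 alternatives. Its change in KO cells exceeded that in WT cells by 0.44 (limma adjusted p = 0.0274), a call lost in 11 of the 30. Between the lines in hypertonic medium Larp1 differed by 0.25 (limma adjusted p = 0.0266), a call lost in 7 of the 30. Of the 13 measured genes of mTORC1 signalling to the ribosome, 5 rose and 2 fell in KO cells in hypertonic medium (12.9% and 17.2% of all genes). After centring the arrays 7 rose and 0 fell, where 6245 of 15963 genes were called in either direction, against 4734 of 15711 before. In WT cells 1 rose (3.94% of all genes). By limma 0 were called with Torin1, with 0 in isotonic and 5 in hypertonic medium at an unadjusted p below 0.05. Of 15 chaperones and assembly factors of ribosomal proteins 5 rose and 1 fell in KO cells in hypertonic medium (12.9% and 17.2% of all genes) and 1 rose in WT cells (3.94%), with medians of 0.32 and 0.22.

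Rps4l, a like gene related to Rps4x and no member by the rule, went the other way. It read 9.43, 9.64 and 9.41 on the isotonic and 9.45, 9.42 and 8.98 on the hypertonic WT arrays, and with Torin1 9.31, 9.59 and 9.16 on the isotonic and 9.36, 9.42 and 9.14 on the hypertonic arrays. The KO arrays read 6.89, 7.47 and 7.37 on the isotonic and 7.36, 7.30 and 7.29 on the hypertonic KO arrays. All 6 KO arrays lay below the lowest array of the WT line, with the highest of them at 7.47 and the lowest WT array at 8.98. KO minus WT was -2.25 ± 0.16 in isotonic (limma adjusted p = 6.99e-08) and -1.97 ± 0.16 in hypertonic medium (3.34e-07), and the isotonic call was lost with isotonic KO array 1 counted as WT (0.228). Rps4x itself, a 40S protein, differed by 0.18 ± 0.09 and 0.15 ± 0.09 (limma adjusted p = 0.212 and 0.203). Genes as alike as these can share signal on an array.

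Mitochondrial ribosomal proteins, which make up the separate ribosome of that organelle, had medians of the opposite sign in KO cells in hypertonic medium. In KO cells hypertonic medium raised 2 and lowered 29 of 77 (12.9% and 17.2% of all genes), with a median of -0.28, and in hypertonic medium 4 were higher and 25 lower in KO than in WT cells (13.8% and 18% of all genes), with a median of -0.23. In isotonic medium 6 were higher and 0 lower in KO cells (7.78% and 6.84%), with a median of 0.06. Centring each array on its median moves the median of all genes to 0.18 for the hypertonic effect in KO cells and to 0.19 for KO against WT in hypertonic medium. The mitochondrial medians were then -0.13 and -0.08, with 5 higher and 20 lower, and 6 higher and 17 lower. Of all 15963 genes then tested, 6245 and 7032 were called in either direction. The cytosolic members then had 0.20 and 0.38, and relative to all genes they lay at 0.03 and 0.20, as in the deposited values.

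**Figure D4:**
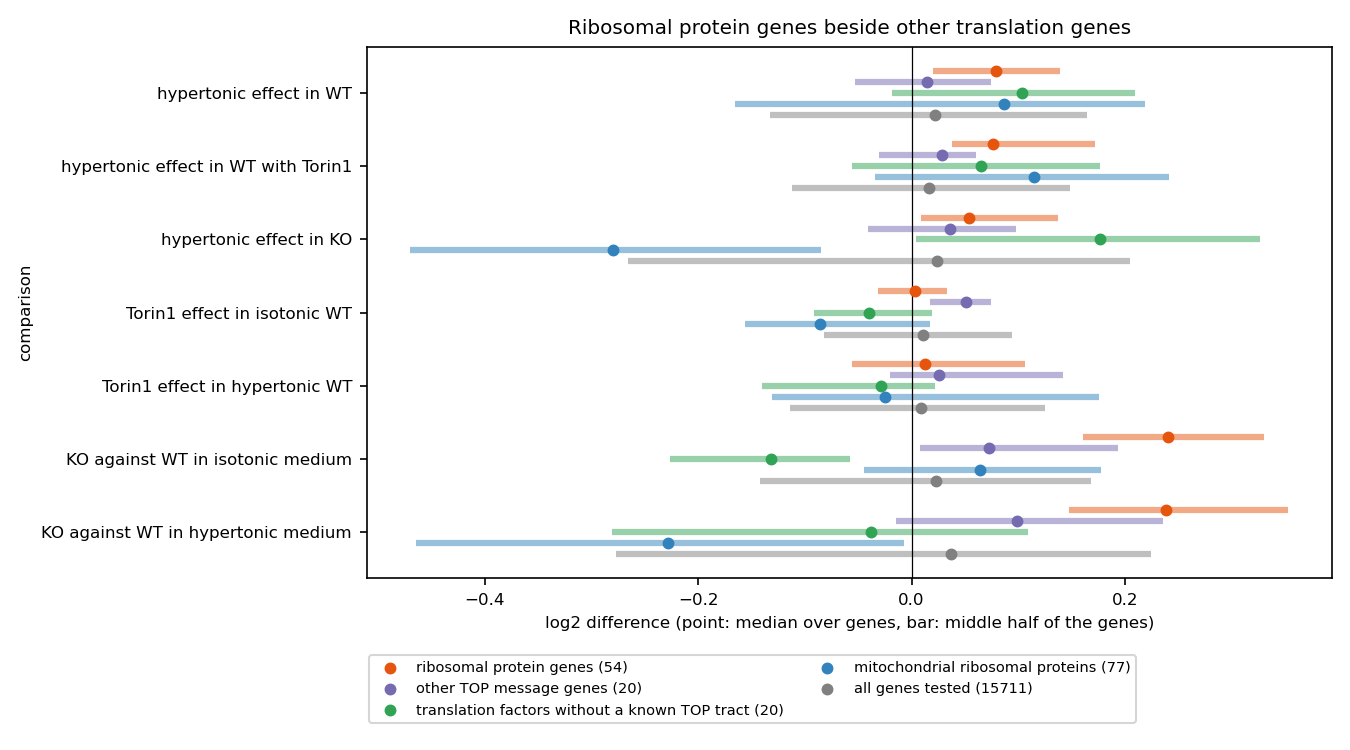
Median (point) and interquartile range (bar) of the log2 differences of ribosomal protein genes, 3 other lists of translation genes and all genes tested, in 7 comparisons, with the number of genes in the key. The ribosomal protein genes lie highest in both comparisons of KO with WT, at 0.24, and near 0 for Torin1.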

How the data were processed

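Total RNA of 18 samples was measured on Affymetrix arrays. The deposited values are log2 signals of 34760 probe sets, made by the authors with RMA in R 2.11.1, per the submitters' processing notes. No depth applies, and the number of arrays limits the precision. Of the probe sets, 21640 name 1 gene in the platform annotation, 1321 several and 11799 none. For each gene the single-gene probe set with the highest mean was used, which gave 19937 genes, and 15711 with a highest group mean above 5.86 (the 30th percentile) were tested. All 6 groups entered 1 limma model (limma 3.58.1, R 4.3.3) with 9 contrasts, and p-values were adjusted over all genes tested by the Benjamini-Hochberg method. The residual degrees of freedom were 12.

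Members and lists were chosen with earlier results of these data known, and no test over a list was made. Array values are given by rule for Rplp0, Rplp1, Rplp2, Rpsa, Rps6, Rpl5, Rpl10 and Rpl22 and for the members with the 3 largest called changes of a comparison. The rule also allows the members of largest and smallest spread, and up to 4 called genes of each other list. Rps10, Rps19, Rps2, Rps3, Rps20, Rps4x and the further members called in hypertonic medium were named after their values were seen. On simulated data for KO against WT in hypertonic medium (15711 genes) the model recovered 35 of 100 genes changed by 0.5 and 78 of 100 changed by 1 on the log2 scale, with 4 false among 117 calls. The simulated noise was independent between genes and arrays, and few genes were changed. In the data arrays and members correlate and 5007 genes were called, so these rates need not hold here.

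Whether array numbers pair the arrays was checked on deviations from the group means. Over the 21 same-numbered pairs of groups compared directly the correlation ran from 0.16 to 0.85, with a median of 0.51, and 15 of 18 arrays were closest to an array of their own number. What a number marks is not given in the labels. Values with the number as a block are given where they change a call. Alternatives varied the filter, the probe set rule, the scaling, the variance model, the samples in the fit, the label of isotonic KO array 1 and each array in turn. Promoter sequences are from RefSeq (GRCm38.p6), 250 bases before and 50 after the start.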

Additional observations from a re-analysis of the deposited data

How the results depend on the processing

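Of 11070 values of named genes under the alternatives 10745 stayed on their side of the threshold, 180 no longer passed and 145 newly passed. The sign changed in 485 of them, in each case for a value called neither as reported nor in the alternative, and in 0 for a called one. The count of members called between KO and WT in isotonic medium was 4. In brackets here and below stand all genes called in either direction, 2298 of 15711 for this comparison as reported. The count was 8 with probe sets averaged per gene (2316), 2 with arrays centred (2327) and 12 with cyclic loess (2404). A trended robust prior gave 8 (2270), and array weights, whose estimation stopped before it converged, gave 10 (3970). The contrast's groups alone gave 2 (1804), and isotonic KO array 1 counted as WT gave 0 (0). Without single arrays the count was 1 to 13 (2428 at 13). In hypertonic medium the count was 15 (5007 of 15711 genes). With arrays centred it was 40, with 7032 of 15963 genes called and a median over all genes of 0.19. It was 6 with the contrast's groups alone (4012), 8 with isotonic KO array 1 counted as WT (4387) and 5 without the arrays of number 4 (6331). Without single arrays it ran from 3 (4463) to 16. The hypertonic effect called 4 members in KO cells (4734), 8 with arrays centred (6245) and 3 to 4 without single arrays. In WT cells it called 0 (1295), but 2 with array weights (4726) and 2 without the arrays of number 4 (3335). Without single arrays it called 0 to 1 (1836 at 1). With Torin1 it called 0 (530), but 1 with quantile normalization (733), 4 with array weights (2031) and 0 to 1 without single arrays (270 at 1). Array weights gave 1 call for Torin1 in hypertonic medium (1210, against 18 as reported). For the difference between the lines they gave 2 (4241, against 1492), and centring gave 1 (1866). The causes were not tested.

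With the array numbers as a replicate block the counts were 10 in place of 4 between KO and WT in isotonic medium and 1 in place of 0 for the hypertonic effect with Torin1, and the pairing moved no other count of members by over 1.5 times. The median difference between KO and WT ran from 0.16 to 0.29 in isotonic medium. In hypertonic medium it ran from 0.09 without the arrays of number 4, through 0.12 with array weights, to 0.38 with arrays centred, and relative to all genes it was 0.20 both as deposited and centred.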
